A study of Arabidopsis thaliana with 21 samples.

Results

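BCAT4 (AT3G19710), AT2G31790 and UGT74B1 (AT1G24100) are 3 glucosinolate synthesis genes of Arabidopsis thaliana. They were taken as the probe sets that a table of probe sets and genes assigned to these loci alone: 1 probe set for each, 3 of the 22746 tested, and 3 of the 13286 genes that could be named. Their levels were followed over 7 groups of 3 biological replicate arrays, 21 arrays in all, made from the entire aerial part of Col-0 plants. All plants grew on soil at 22 °C for 3 weeks with a 12 h photoperiod. Plants kept at 22 °C were of the wild type (WT), of camta1/2, camta1/3 or camta2/3, which each carry mutations in a pair of CAMTA genes, or of camta1/2/3, mutated in all 3. WT and camta1/2/3 were also sampled after 24 h at 4 °C. The labels do not name the alleles, no group is a single mutant or a complemented line, and no double mutant was sampled at 4 °C. No probe set named here belongs to a mutated gene, so the levels of these genes give no check of the genotypes.

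Glucosinolates are sulfur-rich defence compounds of the cabbage order, made from amino acids and split by myrosinases when tissue is damaged. Aliphatic glucosinolates start from methionine, whose side chain is first lengthened, and indole glucosinolates start from tryptophan. Both kinds then pass through a shared core pathway, in which a thiohydroximate receives a glucose on its sulfur and the product is sulfated. BCAT4 is the aminotransferase that deaminates methionine at the entry of chain elongation. UGT74B1 is the glucosyltransferase that adds the glucose in the core pathway. AT2G31790, a glucosyltransferase gene grouped with them, carries only its locus name in the annotation used here. CAMTA proteins are calmodulin-binding transcription activators known for roles in cold-regulated expression and in holding back immunity.

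The levels are log2 values normalized by the authors. A gene is said to rise, fall or differ where the adjusted p of a limma fit to all 21 arrays was under 0.05 (Benjamini-Hochberg, over all 22746 probe sets), and ± stands for the SD of 3 arrays beside a level and for the SE of the fit beside a difference. Array medians ran from 4.86 to 5.01 and the lowest correlation between 2 arrays of a group was 0.98. Of 6 leaf markers 3 had a named probe set, and their log2 summed level lay between 12.96 and 14.53 on every array. Of 7 root markers 2 were named: EXPA7, a root hair expansin gene, stood at the lowest value of the table, 2.17, in all groups, and PYK10, a beta-glucosidase gene that is itself on the list of breakdown genes below, was measurable. None of 5 flower markers was named. In whole aerial parts, fewer cells of a type and less RNA per cell cannot be told apart.

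All 3 genes were highest in WT at 22 °C and lowest in camta1/2/3 at 4 °C. BCAT4 moved over the widest range, from a group mean of 10.99 down to 7.49, a span of 3.50 on the log2 scale. The span of AT2G31790 was 2.56 and that of UGT74B1 was 1.63. The SD within a group had a median of 0.26 for BCAT4, 0.17 for AT2G31790 and 0.16 for UGT74B1, so the span of each gene was several times the usual spread between its replicates.

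BCAT4 read 11.09, 10.93 and 10.94 in WT at 22 °C. It read 11.08, 10.68 and 10.60 in camta1/2 and 10.96, 10.25 and 10.56 in camta1/3. These first 3 groups in its order overlapped one another. WT at 4 °C followed at 10.06, 10.22 and 10.35, overlapping camta1/3 but lying wholly below WT at 22 °C. The arrays of camta2/3 read 9.66, 9.34 and 9.87, and those of camta1/2/3 at 22 °C read 8.93, 8.55 and 9.69. These 2 groups overlapped through replicate 3 of the triple mutant, which stood well above the other two, and both lay below every other group at 22 °C. At 4 °C the triple mutant read 7.55, 7.27 and 7.65, apart from all other groups.

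AT2G31790 had the same order of groups with less spread. It read 8.64, 8.77 and 8.40 in WT, 8.39, 8.38 and 8.56 in camta1/2 and 8.08, 8.03 and 8.40 in camta1/3 at 22 °C. Neighbours among these groups overlapped. The closest set of replicates was WT at 4 °C, with 8.09, 8.05 and 8.11, which lay within the range of camta1/3. Below them came camta2/3 at 7.80, 7.92 and 7.81, then camta1/2/3 at 22 °C with 7.08, 7.17 and 7.41, and last camta1/2/3 at 4 °C with 5.52, 6.25 and 6.35. From WT at 4 °C downward no neighbouring groups overlapped, and replicate 1 of the last group was the lowest array of all.

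UGT74B1, the core glucosyltransferase gene, was the flattest. It read 8.67, 8.83 and 8.81 in WT, 8.40, 8.73 and 8.60 in camta1/2 and 8.62, 8.35 and 8.47 in camta1/3. WT at 4 °C read 8.55, 8.49 and 8.34. The triple mutant at 22 °C read 8.10, 7.94 and 8.65, and camta2/3 read 8.35, 8.04 and 8.15, so here these 2 groups stood in the opposite order from the other genes, at means of 8.23 and 8.18 that differed by less than their SDs. All neighbours down to camta2/3 overlapped, and only camta1/2/3 at 4 °C, with 7.03, 6.96 and 7.42, stood apart from the 6 other groups.

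**Figure D1:**
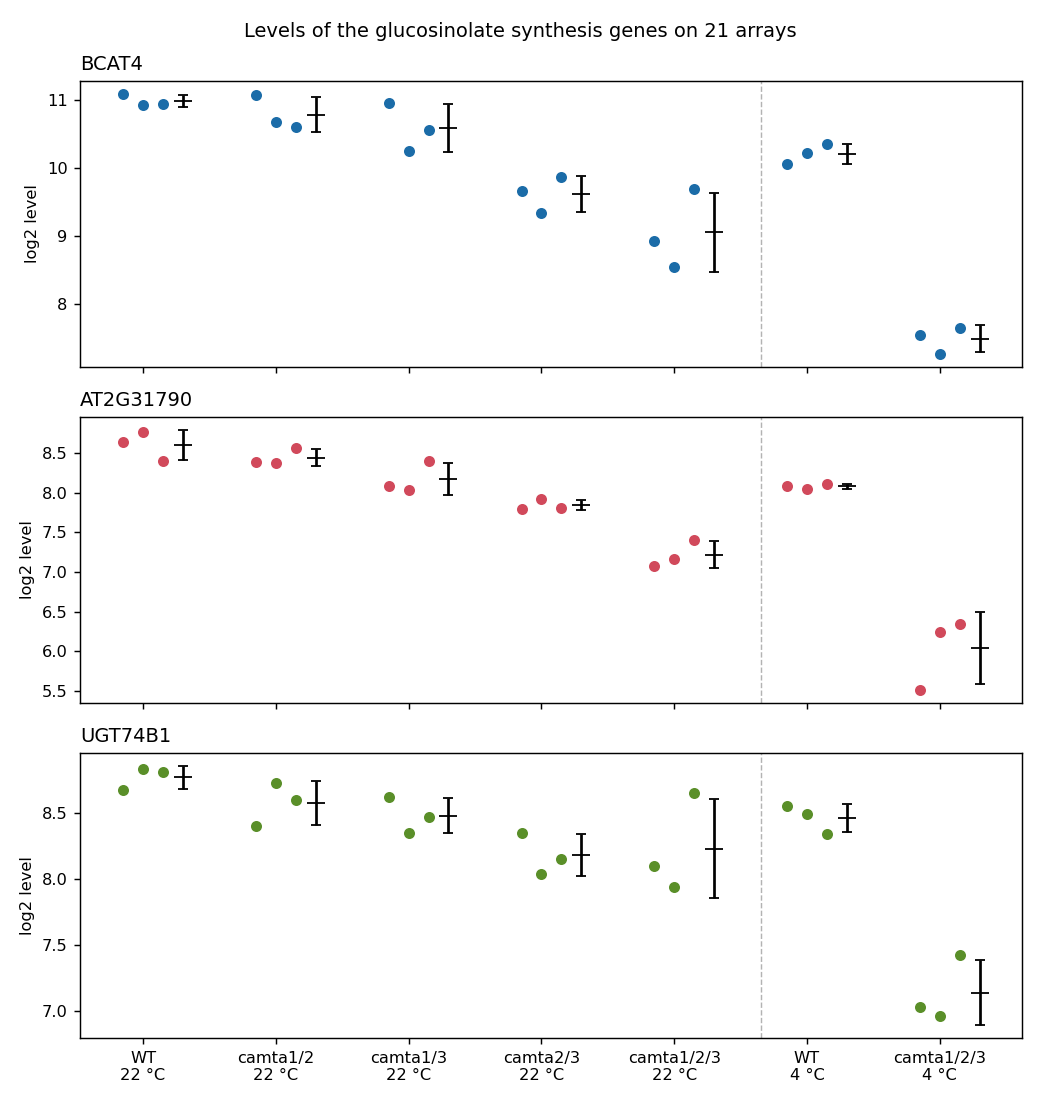
Log2 levels of BCAT4, AT2G31790 and UGT74B1 (vertical axes, each with its own range that does not start at 0) on the 21 arrays, by group; points are single arrays and black bars are the mean ± SD of 3 arrays, with groups at 4 °C right of the dashed line. The 3 arrays of camta1/2/3 at 4 °C lie below all other arrays for each gene, and replicate 3 of camta1/2/3 at 22 °C is high for BCAT4 (9.69) and UGT74B1 (8.65).

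The first question was how far these levels differed between camta1/2/3 and WT at 22 °C. BCAT4 was 3.81-fold lower in camta1/2/3 than in WT, at 9.06 ± 0.58 against 10.99 ± 0.09, a log2 difference of −1.93 ± 0.24. AT2G31790 was 2.61-fold lower, at 7.22 ± 0.17 against 8.60 ± 0.19. UGT74B1 was 1.45-fold lower, at 8.23 ± 0.37 against 8.77 ± 0.09. All 3 genes were called lower (limma, adjusted p = 4.33e-05, 3.52e-05 and 0.0234), where 12.4% of all probe sets were called lower and 11.1% higher. Here and below such shares only give a setting, as the genes and comparisons were chosen with earlier results of these data known. In none of the 3 did the arrays of the groups overlap. The share of all probe sets without overlap is not given, here or below, so such statements only describe the arrays. The BCAT4 difference was 155th from the lowest among the differences of the 22746 probe sets, that of AT2G31790 428th and that of UGT74B1 2831st. The call of UGT74B1 was lost in a fit to the 6 arrays alone (adjusted p = 0.181), with a covariate for RNA quality (0.0901) and in 4 of the 6 fits that leave out an array (replicate 1 or 2 of camta1/2/3, replicate 2 or 3 of WT), with adjusted p up to 0.116. The covariate was the log2 gap between the 3′ and 5′ actin control probe sets, a measure of RNA breakdown or shortened copies, which was 2.90 ± 0.13 in camta1/2/3 against 2.23 ± 0.21 for WT. With it, the differences of BCAT4 and AT2G31790 were −1.82 and −1.42, both still called. Of the 3 leaf markers, LHCB4.2, a light-harvesting protein gene, was called lower by 0.49 in camta1/2/3, and RCA and PRK stood 0.28 and 0.20 lower without a call. The log2 sum of the leaf markers lay between 13.73 and 14.24 in camta1/2/3 and between 14.24 and 14.53 in WT, and that of the root markers between 8.46 and 9.30 and between 7.60 and 8.52. The part of these markers in the results was not tested.

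At 4 °C the gap between the genotypes was larger in value for all 3 genes. BCAT4 was 6.59-fold lower in camta1/2/3 than in WT, at 7.49 ± 0.20 against 10.21 ± 0.15, a log2 difference of −2.72 ± 0.24, the 30th lowest among all probe sets. AT2G31790 was 4.12-fold lower, at 6.04 ± 0.45 against 8.08 ± 0.03, the 90th lowest. UGT74B1 was 2.50-fold lower, at 7.14 ± 0.25 against 8.46 ± 0.11, the 350th lowest. All 3 were called lower (limma, adjusted p = 2e-06, 1.09e-06 and 3.2e-05), against 10.6% of all probe sets called lower and 10.5% higher. All 3 calls held in every alternative fit run here, including each of the 6 without 1 array and the fit with the actin gap, which was 3.11 ± 1.0 for camta1/2/3 and 2.00 ± 0.62 for WT. With that covariate the differences were −2.54, −2.11 and −1.18.

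The changes of the 3 genes were also compared within arrays. In camta1/2/3 against WT, the log2 difference of BCAT4 minus that of UGT74B1 was −1.39 at 22 °C and −1.40 at 4 °C. For AT2G31790 minus UGT74B1 it was −0.84 and −0.72. Exact two-sided permutation tests of these 4 differences over 3 against 3 arrays each gave p = 0.1, the smallest that the design allows, and 0.2 after adjustment over the 12 such tests made. For BCAT4 minus AT2G31790 it was −0.55 and −0.68, with p = 0.2 for each in the same exact test (adjusted p = 0.267). As no p in these tests can fall below 0.1, they cannot decide whether the genes changed by different amounts. A probe set's response also depends on its probes, so these are differences between measured changes, not between transcript numbers.

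The second question was what 24 h at 4 °C did within each genotype. In WT, BCAT4 fell 1.71-fold, from 10.99 ± 0.09 to 10.21 ± 0.15, and AT2G31790 fell 1.43-fold, from 8.60 ± 0.19 to 8.08 ± 0.03. UGT74B1 stood at 8.77 ± 0.09 and 8.46 ± 0.11, a difference of −0.31 ± 0.16 with an interval from −0.65 to 0.03 that was not called (limma, adjusted p = 0.206), although the groups did not overlap. So 2 of 3 were called lower (limma, adjusted p = 0.0315 and 0.0388), where 13.1% of all probe sets were, and 9.93% were called higher. Leaving out any array but WT replicate 3 at 4 °C ended the BCAT4 call (adjusted p up to 0.0982), and any but WT replicate 3 at 22 °C ended that of AT2G31790 (up to 0.138). The BCAT4 call was also lost with array weights (0.0593), and that of AT2G31790 with quantile normalization (0.0738), with arrays centred on their median and with the actin covariate (0.0540).

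In camta1/2/3 all 3 genes fell at 4 °C. BCAT4 went from 9.06 ± 0.58 to 7.49 ± 0.20, a 2.96-fold fall, AT2G31790 from 7.22 ± 0.17 to 6.04 ± 0.45, a 2.27-fold fall, and UGT74B1 from 8.23 ± 0.37 to 7.14 ± 0.25, a 2.13-fold fall. The adjusted p-values were 0.000243, 0.000128 and 0.000151 (limma), with 12.3% of all probe sets called lower and 9.96% higher, and for no gene did the groups overlap. All 3 calls held in the 6 fits without 1 array, but a fit to the 6 arrays alone lost them (adjusted p = 0.0553, 0.0616 and 0.0613). The leaf markers RCA, LHCB4.2 and PRK also fell at 4 °C in both genotypes, by 0.64 to 2.17 on the log2 scale. The log2 sum of the root markers, nearly all of it PYK10, lay between 7.60 and 8.52 in WT at 22 °C and 6.44 and 6.53 at 4 °C, and between 8.46 and 9.30 and 7.05 and 7.38 in camta1/2/3. The part of these markers in the results was not tested.

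The interaction term of the fit compared the cold differences of the 2 genotypes. The difference between 4 °C and 22 °C in camta1/2/3 minus that in WT was −0.79 ± 0.35 for BCAT4, −0.66 ± 0.24 for AT2G31790 and −0.78 ± 0.23 for UGT74B1 on the log2 scale. The test called 0 of 3 (limma, adjusted p = 0.335, 0.230 and 0.108), where 0.849% of all probe sets were called as more negative in camta1/2/3 and 1.12% as more positive. At an unadjusted p under 0.05 it would take 3 of 3. The share of all probe sets at that threshold is not given, here or below, so such counts have no background to be read against. The intervals of the differences ran from −1.53 to −0.05, −1.18 to −0.14 and −1.27 to −0.30. UGT74B1 passed with quantile normalization (adjusted p = 0.0466), and also without replicate 2 of camta1/2/3 at 22 °C or without its replicate 3 at 4 °C (0.0480 in the lower of the 2 fits).

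**Figure D2:**
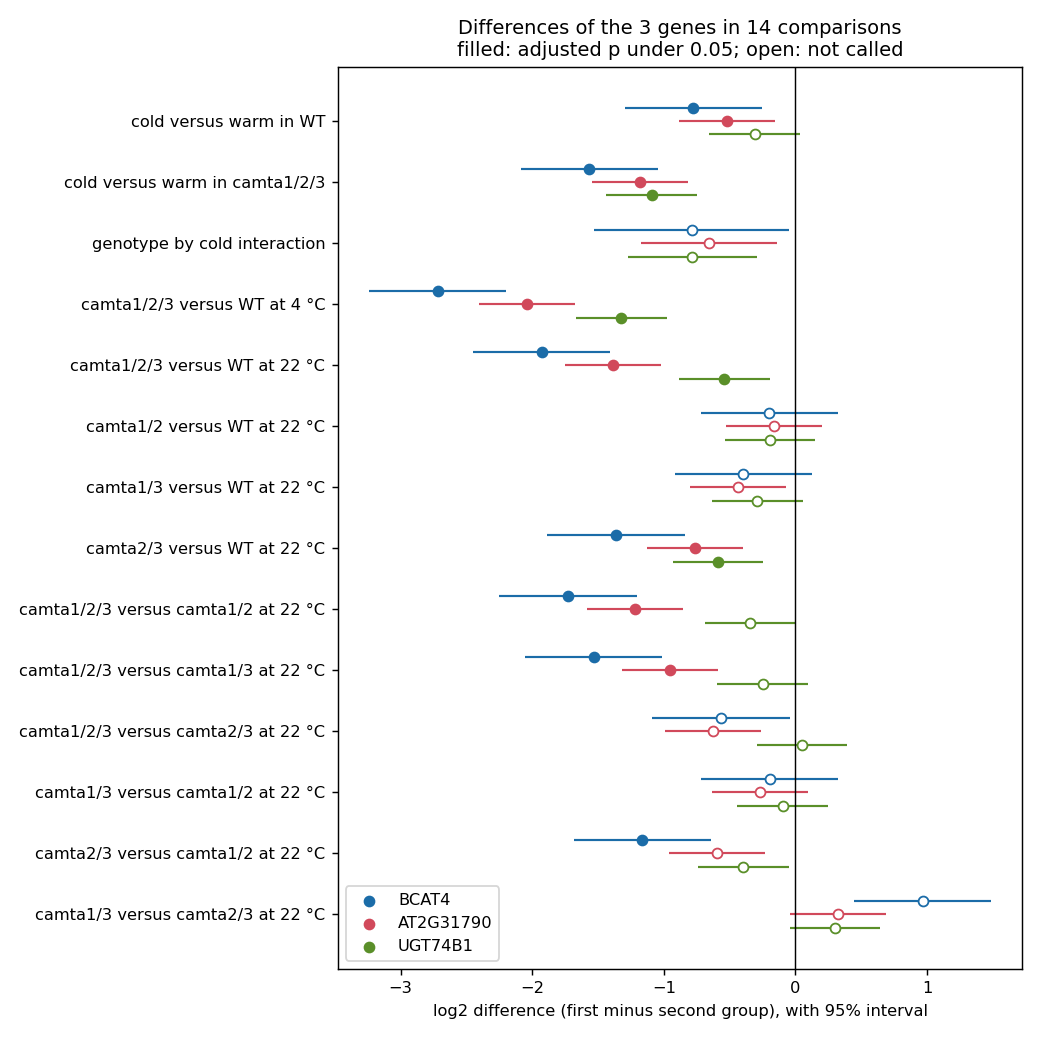
Log2 differences (horizontal axis, first minus second group) of BCAT4, AT2G31790 and UGT74B1 in 14 comparisons, with 95% intervals from the fit to 21 arrays; filled points have an adjusted p under 0.05. The 3 genes are filled together for the triple mutant against WT at both temperatures, for camta2/3 against WT and for cold in camta1/2/3, and open together for camta1/2 and camta1/3 against WT.

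The third question was in which double mutants the genes stood lower than in WT at 22 °C. In camta2/3 all 3 were lower than in WT. BCAT4 stood at 9.62 ± 0.27 against 10.99 ± 0.09, 2.57-fold lower, AT2G31790 at 7.84 ± 0.07 against 8.60 ± 0.19, 1.69-fold lower, and UGT74B1 at 8.18 ± 0.16 against 8.77 ± 0.09, 1.51-fold lower. The adjusted p-values were 0.0021, 0.00967 and 0.0294 (limma), with 5.51% of all probe sets called lower and 4.61% higher, and no groups overlapped. The call of UGT74B1 was lost with the actin covariate (adjusted p = 0.0590) and when replicate 2 or 3 of either group was left out (up to 0.111).

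In camta1/2 the 3 genes stood 0.20, 0.16 and 0.19 below WT on the log2 scale and in camta1/3 0.40, 0.43 and 0.29 below it. Limma called 0 of 3 in each, where 0.0615% and 0.541% of all probe sets were called lower. At an unadjusted p under 0.05 the counts were 0 and 1, the latter being AT2G31790. The intervals of the BCAT4 difference ran from −0.72 to 0.32 in camta1/2 and from −0.92 to 0.13 in camta1/3. In camta2/3 the interval ran from −1.89 to −0.84, which overlapped that of camta1/3 and not that of camta1/2. The 4 comparisons of mutants with WT at 22 °C share the same 3 WT arrays.

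The double mutants were also compared with each other. BCAT4 was 2.24-fold lower in camta2/3 than in camta1/2 (limma, adjusted p = 0.0282), the 1 of 3 genes called, where 0.712% of all probe sets were called lower. That call was lost when any array but replicate 2 of camta1/2 was left out (adjusted p up to 0.126), in a fit to the 6 arrays alone (0.139) and with the actin covariate (0.0743). AT2G31790 and UGT74B1 stood 0.60 ± 0.17 and 0.40 ± 0.16 lower without a call. Between camta1/3 and camta2/3 limma called 0 of 3, with 0.0747% of all probe sets called higher in camta1/3, although BCAT4 stood 0.97 ± 0.24 higher in camta1/3 with no overlap (adjusted p = 0.224), 1 of 3 at an unadjusted p under 0.05. Between camta1/3 and camta1/2 it called 0 of 3, with 0% of all probe sets called lower, and 0 at an unadjusted p under 0.05.

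Adding the third mutation was followed from each double mutant to the triple. Against camta1/2, BCAT4 was 3.32-fold and AT2G31790 2.33-fold lower in camta1/2/3 (limma, adjusted p = 0.00025 and 0.00023), and UGT74B1 stood 0.35 ± 0.16 lower without a call (0.183), so 2 of 3 were called, against 7.06% of all probe sets called lower and 8.47% higher. Against camta1/3, BCAT4 was 2.90-fold and AT2G31790 1.93-fold lower (0.00115 and 0.00261) and UGT74B1 stood 0.25 ± 0.16 lower without a call, again 2 of 3, against 5.14% called lower and 4.43% higher. In fits to 6 arrays alone the BCAT4 call was lost in both comparisons (0.0589 and 0.124) and that of AT2G31790 against camta1/3 (0.0578), and UGT74B1 passed against camta1/2 without replicate 3 of the triple mutant (0.0178).

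Against camta2/3, limma called 0 of 3 in the triple mutant, with 0.426% of all probe sets called lower and 1.01% higher. BCAT4 stood 0.57 ± 0.24 and AT2G31790 0.62 ± 0.17 lower, 2 of 3 at an unadjusted p under 0.05, and the arrays of AT2G31790 did not overlap (adjusted p = 0.0933, and 0.0109 with array weights). UGT74B1 stood 0.05 ± 0.16 higher, with an interval from −0.29 to 0.39. Set side by side, the log2 differences of BCAT4 from WT were −1.36 in camta2/3 and −1.93 in the triple mutant, and those of UGT74B1 were −0.59 and −0.54, with the same WT arrays in both.

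Other genes of glucosinolate metabolism, of its supply and of related gene families give the setting. Of 131 further genes on lists of the pathway and its surroundings, 21 had a named probe set, and none of the lists of other chain elongation genes, of the indole core and of camalexin synthesis had one. At 22 °C, 5 of the 21 were lower and 4 higher in camta1/2/3 than in WT, and 12 were not called, with a median difference of −0.19 against 0 for all probe sets, of which 12.4% were called lower and 11.1% higher. At 4 °C, 5 were lower, 3 higher and 13 not called, with a median of −0.33 against 0, where 10.6% of all probe sets were called lower and 10.5% higher. The medians of the 3 synthesis genes in these comparisons were −1.38 and −2.04. Between 4 °C and 22 °C, 6 of the 21 were called lower, 1 higher and 14 not called in WT, with a median of −0.39, where 13.1% of all probe sets were called lower and 9.93% higher. The counts in camta1/2/3 were also 6, 1 and 14, with a median of −0.28, where 12.3% were called lower and 9.96% higher. The gene called higher was AOP3 in both. The medians of the synthesis genes for cold were −0.52 in WT and −1.18 in camta1/2/3.

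The 1 other core gene named, GSTU20 of the aliphatic core list, a glutathione S-transferase gene, was lower in camta1/2/3 at both temperatures, as the synthesis genes were. It read 10.88, 10.63 and 10.38 in WT and 7.92, 7.40 and 8.40 in camta1/2/3 at 22 °C, a 6.60-fold difference (limma, adjusted p = 4.02e-05). At 4 °C it read 9.89, 10.12 and 9.83 in WT and 6.96, 6.61 and 7.33 in camta1/2/3, a 7.89-fold difference (1.9e-05). The groups did not overlap at either temperature. In camta2/3 GSTU20 stood at 8.99 ± 0.33, 3.12-fold below WT (0.00588), and its difference between 4 °C and 22 °C was called in neither genotype. In camta1/2/3 that difference was −0.94 (adjusted p = 0.0631), and it passed with quantile normalization, a filter on low levels, array weights or the replicate block (0.0234 to 0.0443) and without replicate 2 of camta1/2/3 at 22 °C (0.0325).

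Of the genes that supply activated sulfur, APS3, an ATP sulfurylase gene, had the highest correlation with BCAT4 among the 21 genes (r = 0.966 over 21 arrays). It read 8.19, 8.10 and 8.21 in WT and 5.92, 5.18 and 5.95 in camta1/2/3 at 22 °C, 5.59-fold lower (limma, adjusted p = 1.34e-06). At 4 °C it read 7.71, 7.64 and 7.50 in WT and 4.38, 4.99 and 4.56 in camta1/2/3, 7.85-fold lower (2.13e-07). APS3 was also lower in camta1/2/3 than in camta2/3, by 1.16 ± 0.21 on the log2 scale (0.0123). Its relative APS4 went the other way, at 8.53 ± 0.35 in camta1/2/3 against 7.42 ± 0.12 in WT at 22 °C and 8.54 ± 0.15 against 7.58 ± 0.12 at 4 °C, called higher at both. SIR, the sulfite reductase gene, was 1.72-fold lower at 22 °C, at 8.79 ± 0.20 against 9.57 ± 0.08, and was not called at 4 °C.

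Of the transport genes, 1 of 2 was called. GTR2, which encodes a glucosinolate transporter, was 2.43-fold higher in camta1/2/3 than in WT at 22 °C (8.55 ± 0.12 against 7.27 ± 0.11) and 2.74-fold higher at 4 °C (7.65 ± 0.14 against 6.20 ± 0.88). Replicate 1 of WT at 4 °C, at 5.18, was far below the other two at 6.73 and 6.69, and without it the difference at 4 °C was 0.94 in place of 1.45 on the log2 scale, still called. In a fit to the 6 arrays alone that call was lost (adjusted p = 0.161). GTR1, its close relative, stood 0.73 and 0.54 lower without a call, although the first passed in 3 alternative settings (lowest adjusted p 0.0273). GTR2 fell at 4 °C in both genotypes, by 1.07 in WT and by 0.90 in camta1/2/3, and the fall in WT was 0.56 without its replicate 1 at 4 °C. The call for WT was lost without its replicate 3 at 22 °C (adjusted p = 0.0541) and in a fit to the 6 arrays alone (0.251). That for camta1/2/3 was lost whichever array was left out (0.0590 to 0.113).

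Of the side chain genes, AOP1, a dioxygenase gene, was lower in camta1/2/3 at 22 °C, at 5.29 ± 0.14 against 6.24 ± 0.29, and fell at 4 °C in WT to 5.21 ± 0.14. AOP3, a related gene, read 2.95 or close to it on most arrays at 22 °C, a level not shown to be above background, so no size is given for its changes. Its called differences were higher at 4 °C than at 22 °C in WT (3.78, 3.72 and 3.65 at 4 °C) and in camta1/2/3 (2.96, 3.48 and 3.22), and lower in camta1/2/3 than in WT at 4 °C. The second of these was lost without 1 array in 5 of 6 fits, all but that without replicate 1 of camta1/2/3 at 4 °C (adjusted p up to 0.167). The second and the third were both lost in fits to the 6 arrays alone (0.332 and 0.124). AT2G25450 stood between 10.58 and 11.34 and was called in none of these comparisons. Among regulators, MYC3, a basic helix-loop-helix factor gene of jasmonate signalling, was higher by 0.56 in camta1/2/3 at 22 °C (limma, adjusted p = 0.0471). That call was lost with either other scaling of the arrays, with the replicate block (0.0532), with the actin covariate (0.116) and in a fit to the 6 arrays alone (0.213). It was also lost when any array but WT replicate 1 was left out (up to 0.205). MYC4, a close relative of MYC3, stood 0.54 lower without a call. AT1G04770 was lower by 0.70 in camta1/2/3 at 4 °C, after a fall of 1.13 from its level at 22 °C. The first call (adjusted p = 0.0175) was lost with array weights (0.0593), in a fit to the 6 arrays alone (0.211), with the actin covariate (0.258, difference −0.46) and without WT replicate 1 or 2 or camta1/2/3 replicate 2 (up to 0.0852). Without the last of these the difference was also −0.46. The call of the fall from 22 °C was lost in a limma fit to the 6 arrays alone (adjusted p = 0.0546).

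Of the breakdown genes, JAL23, a jacalin-related lectin gene, was 6.90-fold lower in camta1/2/3 than in WT at 22 °C, at 3.74 ± 0.41 against 6.53 ± 0.72. The level in camta1/2/3 was not shown to be above background, and the fold rests on it. At 4 °C JAL23 stood at 3.74 ± 0.37 against 4.60 ± 0.25 (limma, adjusted p = 0.0474). That call was lost with the replicate block (0.0609), with array weights (0.0802), with the actin covariate (0.0933) and in a fit to the 6 arrays alone (0.11). It was also lost whichever of the 6 arrays was left out (up to 0.176). At 22 °C JAL23 was also lower in camta1/3 and camta2/3, at 4.48 ± 0.17 and 4.03 ± 0.12, while the synthesis genes were called in camta2/3 and not in camta1/3. PYK10 fell at 4 °C by 1.57 in WT and by 1.69 in camta1/2/3. In the triple mutant at 22 °C it stood 0.86 above WT without a call (adjusted p = 0.0585, passing in 3 alternative settings, lowest 0.0128), and it was higher than in each double mutant, where 8.47%, 4.43% and 1.01% of all probe sets were called higher. BGLU28 stayed between 3.90 and 4.06 in group means. Of the supply of amino acids, AT2G04400 was higher by 0.77 at 22 °C and 1.60 at 4 °C in camta1/2/3, and CBL, which makes homocysteine on the way to methionine, fell at 4 °C by 0.83 in camta1/2/3 from 9.04 ± 0.14. The call of AT2G04400 at 22 °C (adjusted p = 0.0484) was lost without WT replicate 2 or 3 or camta1/2/3 replicate 1 or 3 (up to 0.183). In limma fits to the 6 arrays alone this call and that of the CBL fall were both lost (adjusted p = 0.124 and 0.107).

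Relatives of the synthesis genes were also measured. Of the branched-chain aminotransferase family of BCAT4, ATBCAT-5 stood 0.30 and AT1G50110 0.19 lower in camta1/2/3 at 22 °C without a call, and only ATBCAT-5 was called at 4 °C against 22 °C in the triple mutant, lower by 0.61 (adjusted p = 0.0438, and up to 0.211 when an array was left out). Of the UGT74 group, UGT74D1 stood 0.59 lower and UGT74F1 0.12 higher at 22 °C, and neither was called in any of the 14 comparisons.

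**Figure D3:**
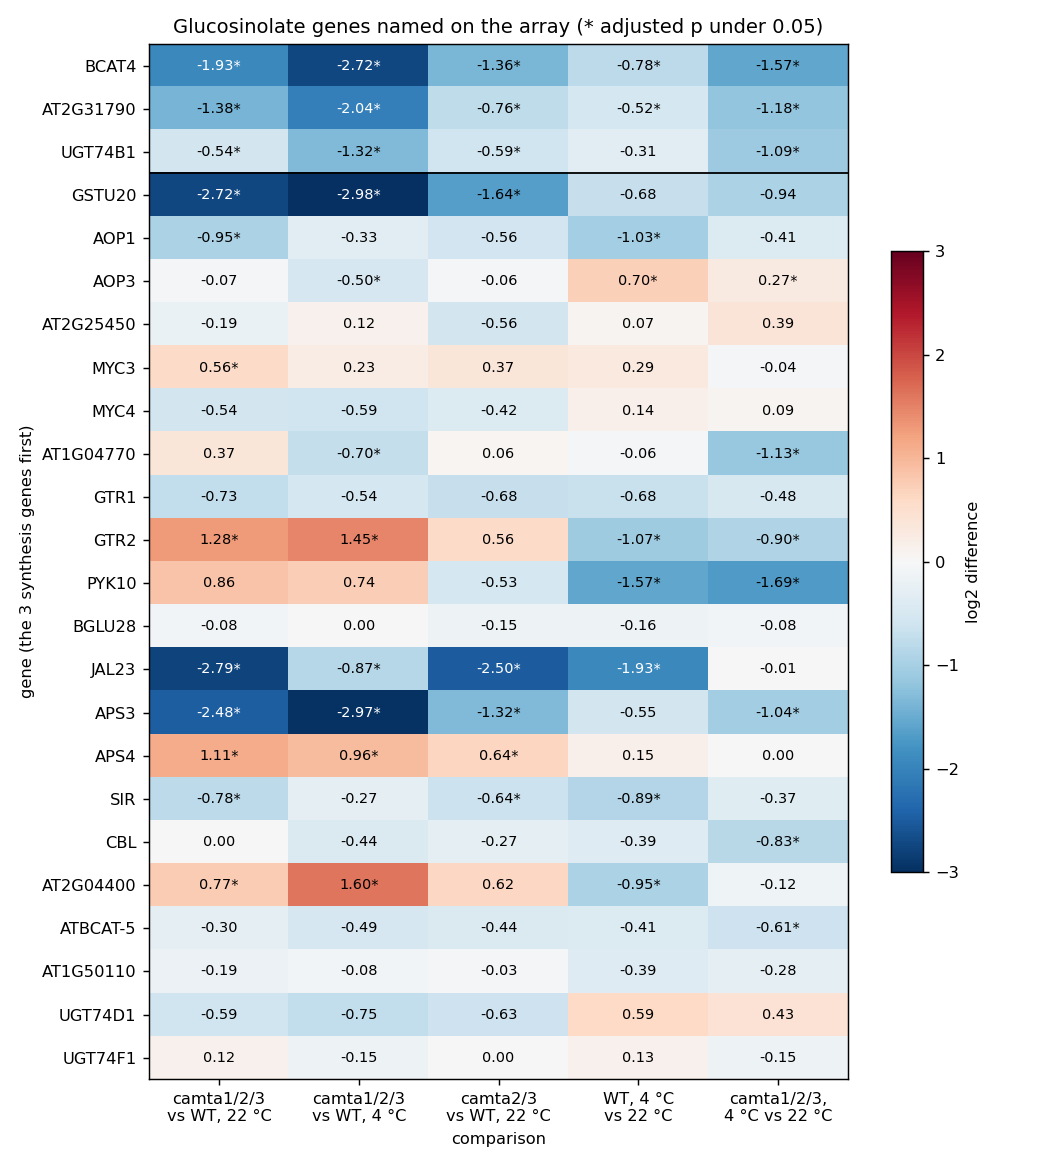
Log2 differences (colour and printed value) of the 3 synthesis genes, above the line, and of the 21 other named genes (rows) in 5 comparisons (columns). The 21 are from lists of the pathway and its surroundings, with supply genes and family relatives among them. An asterisk marks an adjusted p under 0.05. GSTU20 and APS3 are blue in the first 3 columns, as BCAT4 is, while GTR2 and APS4 are red in the first 2.

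The probe sets whose levels were most like those of each gene were listed by Pearson's r over the 21 arrays, which share the strong steps between groups, so high values are common. Closest to BCAT4 were SAH7, APS3, AT5G37360, PMEAMT and AT4G20760, with r from 0.960 to 0.967. Closest to AT2G31790 were AT5G44520, BCAT4, PMEAMT, APS3 and TAPX (0.944 to 0.961). Closest to UGT74B1 were PMEAMT, BCAT4, AT5G20060, AT2G31790 and AT1G21440 (0.914 to 0.942). PMEAMT, a phosphoethanolamine N-methyltransferase gene, was on all 3 lists, with group means from 9.92 in WT at 22 °C to 6.62 in camta1/2/3 at 4 °C. Among the 13142 other single-gene probe sets compared, BCAT4 ranked 2nd in likeness to AT2G31790 and 2nd to UGT74B1, and AT2G31790 ranked 11th and UGT74B1 23rd in likeness to BCAT4. With group means taken out, r was 0.59 between BCAT4 and UGT74B1, 0.78 between BCAT4 and GSTU20 and 0.09 between BCAT4 and AT2G31790. For APS4 it was 0.71 with BCAT4, 0.71 with UGT74B1 and −0.01 with AT2G31790. Over the 21 arrays with group means kept, APS4 had r of −0.68 with BCAT4 and −0.56 with UGT74B1. All these values rest on 21 arrays and share each array's RNA.

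**Figure D4:**
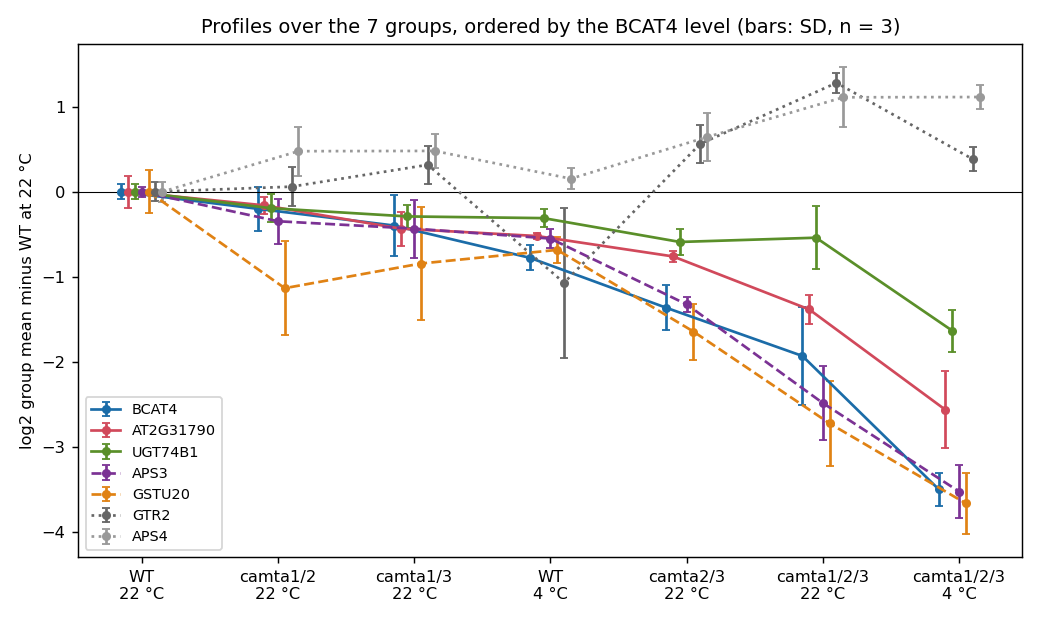
Group means relative to WT at 22 °C (log2, vertical axis) of BCAT4, AT2G31790, UGT74B1 and of APS3, GSTU20, GTR2 and APS4 over the 7 groups, ordered by the BCAT4 level; bars are the SD of 3 arrays and lines only join points of a gene. BCAT4, APS3 and GSTU20 reach about the same depth in camta1/2/3 at 4 °C, UGT74B1 stays flattest among the falling genes, and APS4 and GTR2 lie above WT at 22 °C in the triple mutant.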

How the data were processed

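Total RNA was extracted, amplified, labelled with biotin and hybridized to arrays, per the labels' protocols. The authors deposited 1 table of log2 values per probe set. GCRMA and limma are named, without versions, in the submitters' processing notes. No further transformation was applied to the deposited log2 values, and columns were matched to samples by the samples' own identifiers. Of 22810 probe sets, 64 controls were left out and 22746 were tested with no filter. A naming table listed 14016 of them, 503 with several genes, and 13436 were matched through gene identifiers to RefSeq. A gene with several probe sets was given by the one with the highest mean. The builds and probe sequences were not used here, so no coordinates are given.

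Group means were fitted to 21 arrays with limma 3.58.1 in R 4.3.3 (14 residual and 0.954 prior degrees of freedom), and 14 differences were tested two-sided with Benjamini-Hochberg adjustment over all probe sets. The fit was tested on simulated data. The members, lists and comparisons were chosen with earlier results of these data known. Named genes were all members, every named gene of lists with up to 3 of them, and the 5 closest patterns per member. The 3 arrays per group limit the precision. The same replicate number went with correlated deviations over 0.1 in every pair for 3 of 14 comparisons, a likeness seen from the data alone. The main fit had no term for the replicate number in any comparison. It entered only in an alternative fit, the replicate block. The alternatives were other scalings, priors, weights, thresholds and filters, a replicate block, only the groups compared, the actin covariate and leaving out each array.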

Additional observations from a re-analysis of the deposited data

Results flagged for a closer look

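Groups of 3 arrays are too small for a test of single outlying arrays, so the interaction of genotype and cold was the measure used to single out results. JAL23 differed between the genotypes in its response to 4 °C: it fell by 1.93 on the log2 scale in WT and differed by 0.01 between temperatures in camta1/2/3, an interaction of 1.92 ± 0.41 (limma, adjusted p = 0.0267). It read 3.92, 4.04 and 3.27 in the triple mutant at 22 °C and 3.31, 3.95 and 3.95 at 4 °C. The mean was 3.74 in both, a level not shown to be above background, with 2.17 as the lowest value of the table. Whether a further fall in the cold could have been measured there was not tested, so the interaction is not given as a size of response. Leaving out replicate 1 of WT at 4 °C, replicate 3 of camta1/2/3 at 22 °C or its replicate 2 or 3 at 4 °C ended the call, 4 of 12 such fits, with adjusted p up to 0.0661, as did a fit to the 12 arrays alone. Of BCAT4, AT2G31790 and UGT74B1, 0 of 3 were called in that test, all with the opposite sign. The same test called 0.849% of all probe sets as more negative in camta1/2/3 and 1.12% as more positive.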

How the results depend on the processing

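The 42 differences of BCAT4, AT2G31790 and UGT74B1 (19 called) gave 420 values under settings other than leaving out 1 array: 396 kept direction and side of the threshold, 20 lost a call, 3 gained one and 1 changed sign. Of 270 values without 1 array, 242 kept both, 23 lost a call, 3 gained one and 2 changed sign. All 3 sign changes were of the uncalled UGT74B1 difference between camta1/2/3 and camta2/3 (0.05): −0.0051 with quantile normalization, −0.02 without camta2/3 replicate 2 and −0.16 without camta1/2/3 replicate 3 (highest 0.195, without its replicate 2). The cause of the changes below was not tested, except that stricter thresholds and fits to fewer arrays call less by construction.

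Of the 3 genes, the 2 called for cold in WT became 1 with quantile normalization, median centring, array weights or the actin covariate and 0 at an adjusted p under 0.01 or at 2-fold. The interaction count of 0 became 1 with quantile normalization. The count against camta2/3 in camta1/2/3 went from 0 to 1 with array weights, and that of camta2/3 against camta1/2 from 1 to 2 with weights and to 0 in the fit to the groups compared, with the actin covariate and at 0.01. In fits to the groups compared, counts went from 3 to 0 for cold in camta1/2/3, from 2 to 1 against camta1/2 and from 2 to 0 against camta1/3. At 2-fold, camta2/3 against WT went from 3 to 1 and camta1/2/3 against camta1/3 from 2 to 1. Without 1 array, counts ran from 0 to 1 for cold in WT, for the interaction and for camta2/3 against camta1/2, from 2 to 3 for camta1/2/3 and for camta2/3 against WT at 22 °C and for camta1/2/3 against camta1/2, and did not change elsewhere. With the replicate block the counts were the same in all 14 comparisons, for example 3 for camta1/2/3 against WT at 22 °C and 2 for cold in WT, and no call of the 3 genes changed; 18 of 21 arrays had their closest deviations with their own number.

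The calls over all probe sets, which set the background, moved by over 1.5 times in fits to the groups compared: from 5250 to 3131 for cold in WT, 5053 to 2447 for cold in camta1/2/3, 447 to 188 for the interaction, 4800 to 2014 and 5342 to 3252 for camta1/2/3 against WT at 4 °C and 22 °C, 37 to 0, 502 to 1 and 2301 to 1262 for camta1/2, camta1/3 and camta2/3 against WT, 3533 to 1653, 2177 to 481 and 326 to 59 for camta1/2/3 against these, and 2 to 0, 324 to 44 and 24 to 3 between double mutants. With array weights 37 became 128, 502 became 1006, 2301 became 3808, 2177 became 3935, 326 became 2115, 324 became 1138 and 24 became 164. With quantile normalization 37 became 68 and 326 became 491 (higher calls 52.7% in place of 70.2%), and with median centring 37 became 56. With a mean level of at least 4, 37 became 141 (higher 90.1% in place of 62.2%) and 324 became 550. With the replicate block 24 became 49 (higher 81.6% in place of 70.8%), and with the actin covariate 4800 became 2692 and 324 became 200. Without 1 array the interaction had 275 to 555 calls, camta1/2 against WT 7 to 279, camta1/3 169 to 718, camta2/3 1485 to 2314, camta1/2/3 against camta1/3 1437 to 1843 and against camta2/3 123 to 310, camta2/3 against camta1/2 127 to 370, camta1/3 against camta2/3 2 to 25 and against camta1/2 0 to 10. Of 37 calls of the 21 other genes in 6 comparisons, 21 were lost under none of the settings at an adjusted p under 0.05, 15 were lost in fits to the groups compared, 11 without some array, 3 with another scaling and 0 changed sign. Of the 89 differences not called, 23 passed in some setting or without some array. With the replicate block 2 of the 37 were lost and 6 passed, among them AOP1 in camta2/3 against WT (−0.56, adjusted p = 0.00346 in place of 0.0565).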
